A study of Rattus norvegicus with 6 samples.

Results

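The genes described here encode C-type lectins and scavenger receptors, most of them known from macrophages: Clec10a, Clec4a1, Clec11a, Clec14a, Mrc1, Cd163, Msr1, Marco, Cd68 and Cd14. They were chosen by matching the accession of each array probe, without its version, to these rat symbols in RefSeq. Of the 10 genes listed, 6 had a probe, with 9 probes among 41012 gene probes on the array. The levels of Mrc1, Cd163, Msr1 and Marco were not analysed here. All 6 genes were among the 21847 genes and unnamed probes tested, since at least 1 probe of each lay above background on 3 or more arrays, and 8 of the 9 probes passed that filter. The genes were grouped with results of the same LIPUS and control arrays in view. Their changes are therefore given as descriptions, and the adjusted p values beside them say where each gene stood in the fit over the whole array.

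C-type lectins are calcium-dependent receptors that recognise sugars on microbes and on the body's own glycoproteins, although several family members have lost sugar binding. Scavenger receptors take up modified lipoproteins, debris and microbial molecules, and CD14 hands bacterial lipopolysaccharide to the Toll-like receptor complex. In bone marrow these molecules are known from resident macrophages and monocytes, cells that lie beside bone-forming osteoblasts and clear dying cells. Not all of the listed genes are macrophage genes. Clec11a encodes a secreted growth factor of marrow stroma, known in mouse to promote bone formation, and Clec14a encodes a receptor of endothelial cells.

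The cells came from the bone marrow of male rats aged 8 weeks and were kept under osteogenic conditions until day 10, when RNA was taken. In 3 samples the cultures received low-intensity pulsed ultrasound (LIPUS), in which short bursts of sound act as a mechanical stimulus, and 3 control samples received none. Each sample was labelled with Cy3, a green dye, and put on 1 single-colour Agilent array. The labels do not say whether replicates came from separate animals or cultures, so p values measure only the spread between these samples, which may be technical. The comparison asks which genes differ in abundance between ultrasound-treated and untreated marrow cultures.

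Levels are log2 spot brightness after background correction, minus the 75th percentile of all gene probes on the same array, so 0 is that percentile and each unit is a doubling. Probes above background made up 55.3% to 61.9% of gene probes on the LIPUS arrays and 53.5% to 61.3% on the control arrays. Between 319 and 380 probes reached the scanner's upper limit of 65535 on the LIPUS arrays, and 386 to 468 did on the control arrays. The tilt of the scanned grid put control 3 with the LIPUS arrays and set control 1 and control 2 apart. The tilt stands in for the slide, which the labels do not give, so differences within that shared set rest on control 3 alone. A gene was called when its limma adjusted p was under 0.05. Over all tested genes and probes, 6.63% were called in either direction, 3.74% lower and 2.89% higher in LIPUS, and the median log2 change was 0.034. Of the 6 measured lectin and scavenger receptor genes, 3 were called lower, 0 higher and 3 did not pass, with a median of -0.52 (-0.88 over the 5 genes without Cd68, whose spots were at the scanner limit). A second source, the authors' value table, holds their own log2 values for the same arrays, again with a 75th percentile of 0. It was used for Cd68, whose spots reached the scanner limit, and beside the other genes.

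Clec10a (NM_022393) encodes a lectin that binds galactose and N-acetylgalactosamine and is known from alternatively activated macrophages and dendritic cells. Its spot brightness was 6971, 4617 and 6980 on the LIPUS arrays, against 63177, 51538 and 58986 on the control arrays. Some pixels of the control spots were at the scanner limit, 38%, 11% and 21% of them, against 0% on each LIPUS array. Levels were 3.06, 2.75 and 3.21 in LIPUS, against 6.09, 6.10 and 5.82 in control. Every LIPUS array lay far below every control array, and the range within a group was 0.46 in LIPUS and 0.27 in control. The means were 3.01 ± 0.24 in LIPUS and 6.0 ± 0.16 in control (SD, n = 3 each), so Clec10a was 7.97-fold lower in LIPUS (log2 change -2.99 ± 0.18, SE, limma adjusted p = 0.00022). No other tested gene or probe had a lower log2 change, its rank being 1 from the bottom of 21847. In the value table the levels were 3.18, 3.00 and 3.56 in LIPUS, against 6.04, 6.33 and 5.97 in control, a 7.30-fold difference. Against control 3 alone, on the shared grid set, the LIPUS mean was lower by a log2 change of -2.81.

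Clec4a1 (NM_001005890) belongs to the group of lectins around the dendritic cell immunoreceptor, which are expressed on myeloid cells. The spots measured 1240, 746 and 1434 on the LIPUS arrays, against 4208, 3328 and 5481 on the control arrays, with no pixels at the limit. Its levels of 0.64, 0.22 and 0.97 in LIPUS stood against 2.20, 2.17 and 2.41 in control. The groups did not overlap, and LIPUS arrays spread more widely than control arrays, over 0.75 against 0.24. Clec4a1 averaged 0.61 ± 0.38 in LIPUS and 2.26 ± 0.13 in control (SD, n = 3 each) and was 3.14-fold lower in LIPUS (log2 change -1.65 ± 0.21, SE, limma adjusted p = 0.00218). Its change had rank 73 from the bottom of all 21847 tested, and rank 28 among the 5697 with a symbol. The value table gave a log2 change of -1.57, and against control 3 alone the change was -1.80. The probe's accession names Clec4a1, but the array carried no probe that maps to the neighbouring family members Clec4a, Clec4a2 and Clec4a3, so signal shared with these similar genes was not tested.

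Cd14 (NM_021744), the co-receptor for lipopolysaccharide on monocytes and macrophages, had 2 probes. The brighter probe measured 12077, 7588 and 10255 on the LIPUS arrays, against 22165, 16812 and 26018 on the control arrays. Its levels were 3.85, 3.46 and 3.76 in LIPUS, against 4.58, 4.48 and 4.64 in control. All LIPUS arrays lay below all control arrays. Cd14 averaged 3.69 ± 0.20 in LIPUS and 4.57 ± 0.08 in control (SD, n = 3 each) and was 1.84-fold lower in LIPUS (log2 change -0.88 ± 0.17, SE, limma adjusted p = 0.0150). The dimmer probe had levels of 1.36, 0.96 and 1.17 in LIPUS, against 1.74, 1.81 and 2.11 in control, with a log2 change of -0.72 ± 0.18. Without control 1 or without LIPUS 2 the Cd14 call was lost, with limma adjusted p values of 0.0598 and 0.0670 and log2 changes of -0.87 and -0.76. It was lost as well with the grid set as a block (adjusted p = 0.0959) and in the value table, where the log2 change was -0.86 and the adjusted p was 0.207 over all rows and 0.0538 over probes above background in the spot tables. Against control 3 alone it was -0.95.

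Cd68 (NM_001031638) encodes a heavily glycosylated protein of lysosomes and late endosomes that serves as a general macrophage marker. On the control arrays its spot stood at the scanner limit of 65535 on all 3 arrays, with 72%, 83% and 73% of pixels saturated. On the LIPUS arrays the spot measured 57749, 47951 and 59040, below the limit, with 35%, 1% and 30% of pixels saturated. The spot tables therefore hold only a bound for the control level, and the size of the Cd68 difference cannot be read from them. The capped means there were 6.17 in LIPUS and 6.18 in control (log2 change -0.02 ± 0.18, SE, limma adjusted p = 0.966). Against control 3 alone, also capped, the log2 change was 0.19 in the spot tables, and it was -0.91 in the value table. In the value table its levels were 6.26, 6.20 and 6.28 in LIPUS, against 7.20, 7.22 and 7.16 in control. The groups stood apart by far more than the spread within each. The means there were 6.25 ± 0.04 in LIPUS and 7.20 ± 0.03 in control (SD, n = 3 each), a 1.93-fold difference (log2 change -0.95 ± 0.18, SE, limma adjusted p = 0.137 over all rows of that table). On a linear scale, its values in that table were 13.8% to 17.8% of the largest value of the same array in LIPUS. In control they were 38.2% to 46.6% of it, so they lay below the top of that table. How the authors obtained these values is not given in the sources used here.

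Clec11a (NM_001012459), the secreted growth factor of marrow stroma, lay on the other side of 0. Its brighter probe measured 1484, 1086 and 1290 on the LIPUS arrays, against 1199, 666 and 1595 on the control arrays. Levels after scaling were 0.88, 0.72 and 0.84 in LIPUS, against 0.43, -0.06 and 0.65 in control. LIPUS arrays lay above control arrays, but control 3 came within 0.070 of the lowest of them. The means were 0.82 ± 0.08 in LIPUS and 0.34 ± 0.36 in control (SD, n = 3 each), and the log2 change of 0.48 ± 0.20 (SE) did not pass (limma adjusted p = 0.205). A dimmer probe gave 0.08, -0.21 and -0.13 in LIPUS, against -0.81, -0.72 and -0.33 in control, with a log2 change of 0.53. For the brighter probe the value table held 1.28, 1.49 and 1.56 in LIPUS, against 0.03, 0.31 and 0.37 in control, which is a 2.30-fold difference (log2 change 1.20 ± 0.21, SE, limma adjusted p = 0.120 over all rows of that table). The sources thus differed by more than their standard errors in the size of the change at this probe. Against control 3 alone the log2 change was 0.16 in the spot tables and 1.07 in the value table. For the dimmer probe, the value table gave a log2 change of 0.48 with groups that overlapped.

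Clec14a (NM_001014077), the endothelial lectin, was the dimmest of the measured genes. Its brighter probe had spots of 214, 203 and 186 on the LIPUS arrays, against 237, 203 and 437 on the control arrays. Levels were -1.61, -1.46 and -1.65 in LIPUS, against -1.67, -1.52 and -1.04 in control. The groups overlapped, and control 3 was the highest array. The log2 change was -0.16 ± 0.20 (SE, limma adjusted p = 0.666), and without control 3 it turned to 0.021. Against control 3 alone the log2 change was -0.53 in the spot tables and -0.85 in the value table. A further probe was above background on 1 of the 3 LIPUS arrays and on 0 of the 3 control arrays, so no fold was taken from it.

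**Figure D1:**
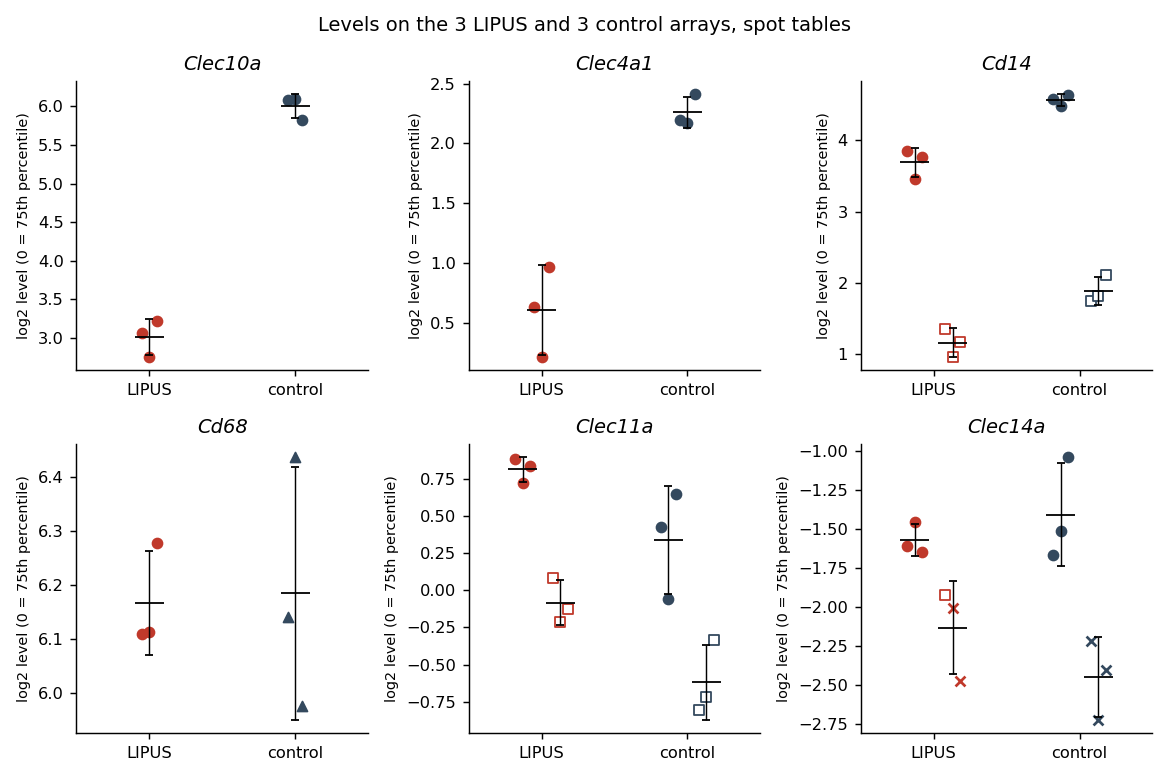
Log2 levels in the spot tables (vertical axes, 0 is the 75th percentile of each array) of the 6 measured genes on the LIPUS arrays (left, red) and the control arrays (right, dark blue), with bars for the mean and SD of 3 arrays. Open squares are a second probe of the same gene, triangles are spots at the scanner limit and crosses are spots not above background; Clec10a was 3.01 in LIPUS and 6.0 in control, and the scale of each panel is its own.

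Groups that do not overlap were found for 4 of the 6 genes in the spot tables (Clec10a, Clec4a1, Cd14 and Clec11a), while 27.2% of all tested genes and probes had such groups. In the value table the log2 changes of Clec10a, Clec4a1 and Cd14 were close to those of the spot tables, whereas those of Cd68 and Clec11a were not. Tested over all 39143 rows of that table, 0 rows were called by limma (0%), with 5040 at an unadjusted p under 0.05, and the 6 genes had adjusted p values of 0.0589 for Clec10a, 0.120 for Clec4a1, 0.120 for Clec11a, 0.137 for Cd68, 0.207 for Cd14 and 0.915 for Clec14a. Restricted to the 21847 genes and probes above background in the spot tables, a fit chosen after the result over all rows was seen, 3.7% were called, 2.38% lower and 1.33% higher. There Clec10a (adjusted p = 0.0104), Cd68 (0.0230) and Clec4a1 (0.0278) were called lower, and Clec11a (0.0230) was called higher. Cd14 and Clec14a did not pass in it.

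**Figure D2:**
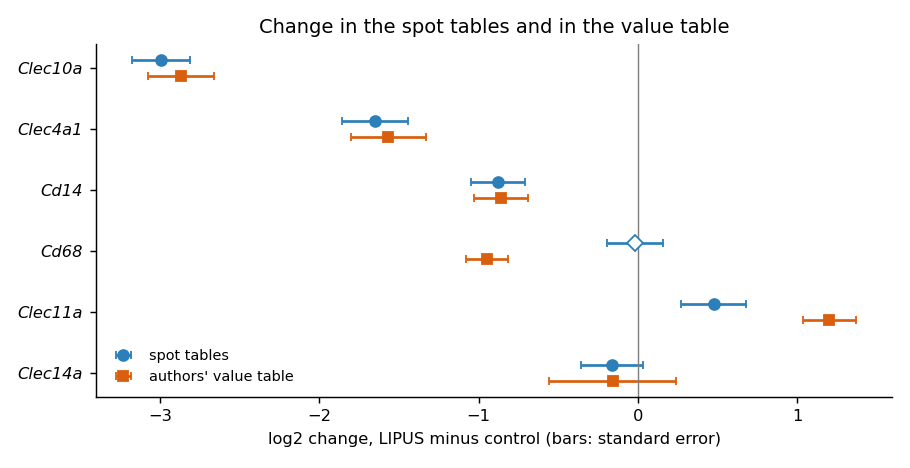
Log2 change, LIPUS minus control (horizontal axis; bars are the standard error), of each gene in the spot tables (blue circles) and in the authors' value table (orange squares, with the standard error of the fit over probes above background). The open diamond of Cd68 marks control spots at the scanner limit; the sources lie close together for Clec10a, Clec4a1 and Cd14, and apart for Cd68 (-0.02 and -0.95) and Clec11a (0.48 and 1.20).

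**Figure D3:**
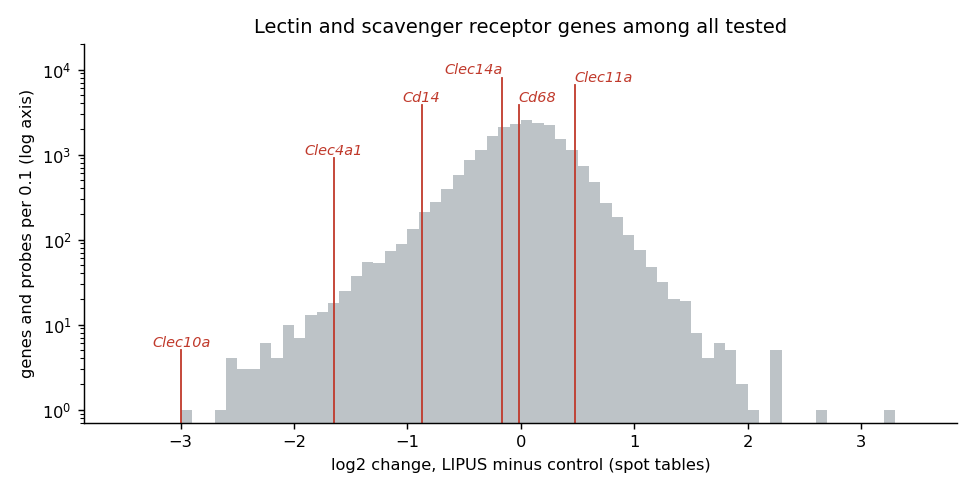
Number of genes and probes (vertical log axis) by log2 change, LIPUS minus control (horizontal axis, bins of 0.1), over all 21847 tested in the spot tables, with the 6 genes as red lines. Clec10a at -2.99 lies at the left end of the distribution, and Cd68, whose control spots were at the scanner limit, stands near 0.

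Promoter sequences are shown for genes called lower in LIPUS in either source, with an entry in the RefSeq promoter table (assembly GRCr8). Cd68 is among them only through the restricted fit of the value table, which was chosen after the result over all rows was seen. The question of shared letters arises for genes that move together. The table holds 8 of the 10 listed genes, without Clec10a and Msr1. Each sequence is the 250 bases before the start of the gene, read 5′ to 3′ on the strand of the gene, and the capitals mark GAGGAA, which reads TTCCTC where it lies on the reverse strand. GAGGAA is the core of the sites bound by PU.1, a transcription factor of the myeloid lineage.
Clec4a1, chr4:157845561-157845810, strand plus: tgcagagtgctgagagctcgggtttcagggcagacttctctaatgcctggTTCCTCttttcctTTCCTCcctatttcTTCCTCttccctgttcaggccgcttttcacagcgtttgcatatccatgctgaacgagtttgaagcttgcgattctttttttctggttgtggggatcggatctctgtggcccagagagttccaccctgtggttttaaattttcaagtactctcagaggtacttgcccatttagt
Cd14, chr18:28611159-28611408, strand minus: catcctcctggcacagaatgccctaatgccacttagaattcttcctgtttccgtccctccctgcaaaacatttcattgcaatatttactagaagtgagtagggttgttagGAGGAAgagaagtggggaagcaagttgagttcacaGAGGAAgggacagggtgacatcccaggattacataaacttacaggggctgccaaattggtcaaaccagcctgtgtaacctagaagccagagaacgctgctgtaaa
Cd68, chr10:54882442-54882691, strand minus: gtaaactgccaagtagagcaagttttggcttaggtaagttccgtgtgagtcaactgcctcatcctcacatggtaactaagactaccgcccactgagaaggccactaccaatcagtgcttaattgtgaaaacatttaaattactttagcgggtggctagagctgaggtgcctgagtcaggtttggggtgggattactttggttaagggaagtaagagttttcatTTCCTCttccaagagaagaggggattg
The letters GAGGAA, searched on both strands, occurred 3 times in the Clec4a1 window, at 200, 187 and 173 bases before the start on the reverse strand. In the Cd14 window they occurred at 140 and 105 bases before the start, on the strand of the gene, and in the Cd68 window once, at 27 bases on the reverse strand. Of all 33469 promoters in the table, 23.3% held GAGGAA. The composite element of Ets and IRF factors, likewise searched on both strands, occurred once each in the Clec4a1 and Cd68 windows, where it overlaps a GAGGAA match, and in 2.48% of all promoters. A match is a description of letters in this window. Clec11a held GAGGAA once and Clec14a held neither. Of the listed genes without a probe, Mrc1 held GAGGAA 2 times, Marco held GAGGAA and the composite element once each, and Cd163 held neither.

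By a rule that takes the smallest root mean square difference between centred profiles over the 6 arrays, the genes most like Clec10a were Dnase1l3 (0.255), a secreted nuclease gene, Fcgr2b (0.309), the inhibitory Fc receptor gene, and Cdh1 (0.373), the gene of E-cadherin. Their log2 changes were -2.66, -2.43 and -2.57. For Clec4a1 they were Fcgr3a (0.168), a low-affinity Fc receptor gene, B4galnt1 (0.172), which encodes a ganglioside-synthesising enzyme, and Avil (0.174), with log2 changes of -1.58, -1.59 and -1.61. For Cd14 they were Ifngr1 (0.0302), a chain of the interferon gamma receptor, Myo5a (0.0576) and Adgrf5 (0.0698), with log2 changes of -0.84, -0.82 and -0.86. The rule weighs the size of the change, so the similar log2 changes follow from it. Clec10a, with the lowest log2 change of all tested, had no neighbour as near as those of Cd14, which likewise follows from the rule.

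Of 17 listed signalling partners of Cd14, 6 were measured, and 5 of these had a log2 change below 0. Called lower in LIPUS were 3 of the 6, against 3.74% of all tested genes and probes. The median log2 change was -0.95. Tlr2 (log2 change -1.61 ± 0.16, SE, limma adjusted p = 0.000784), which encodes a receptor for bacterial lipoproteins, fell to 0.92, 0.77 and 0.76 in LIPUS, against 2.51, 2.30 and 2.48 in control. Tlr4 (-1.22 ± 0.23, adjusted p = 0.0138), the lipopolysaccharide receptor, and Tlr6 (-1.20 ± 0.22, adjusted p = 0.0115), which pairs with Tlr2, fell as well. With the grid set as a block, Tlr2 was called (adjusted p = 0.0260) and Tlr4 and Tlr6 were not (0.208 and 0.180). Lbp, the serum protein that loads CD14, had a log2 change of 0.72 and did not pass (adjusted p = 0.0610). Ly96 at -0.70 and the adaptor Myd88 at -0.33 did not pass.

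Other C-type lectin genes were mostly dim. Of 46 listed, 20 had a probe and 7 passed the filter, and none of these 7 was called by limma, although 4 had an unadjusted p under 0.05. Their median log2 change was -0.25. With spike-in scaling 3 of them were called lower, a setting that called 3522 of all 21847 tested genes and probes lower. The lowest p belonged to Cd93 (-0.46 ± 0.16, SE, adjusted p = 0.120), followed by Clec2d (0.52), Clec2g (-0.46) and Thbd (-0.37). Of 22 other scavenger receptor genes, 6 were measured and none was called, with 1 at an unadjusted p under 0.05 and a median of 0.01. Cd6 had a log2 change of 0.79 (adjusted p = 0.0957), and Scarb1 (-0.40), Cd36 (0.13) and Scarb2 (-0.08) did not pass. The lipid uptake receptor Cd36 was thus measured at 2.11, 1.93 and 2.15 in LIPUS, against 1.95, 1.80 and 2.05 in control, with overlapping groups.

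Downstream of haemoglobin uptake, the function of the unmeasured Cd163, 2 of 9 measured genes were called lower and 0 higher, with a median log2 change of -0.14. Hmox1, which encodes the enzyme that opens the haem ring, fell to 4.09, 3.83 and 4.09 in LIPUS, against 5.32, 5.26 and 5.32 in control (log2 change -1.29 ± 0.16, SE, limma adjusted p = 0.00187). Slc11a1, a metal transporter gene of macrophage lysosomes, was lower by a log2 change of -0.93 (adjusted p = 0.0322), a call that was lost in 13 of 20 alternative settings. Blvra (-0.62, adjusted p = 0.0550) and Hpx (0.22) did not pass. Among genes of alternative activation, the state in which Clec10a and Mrc1 are known, 7 of 16 were measured and 0 were called by limma, with 0 at an unadjusted p under 0.05. Arg1 had a log2 change of -0.48 (adjusted p = 0.243), Klf4 of 0.41, Tgm2 of -0.21 and Stat6 of -0.18.

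**Figure D4:**
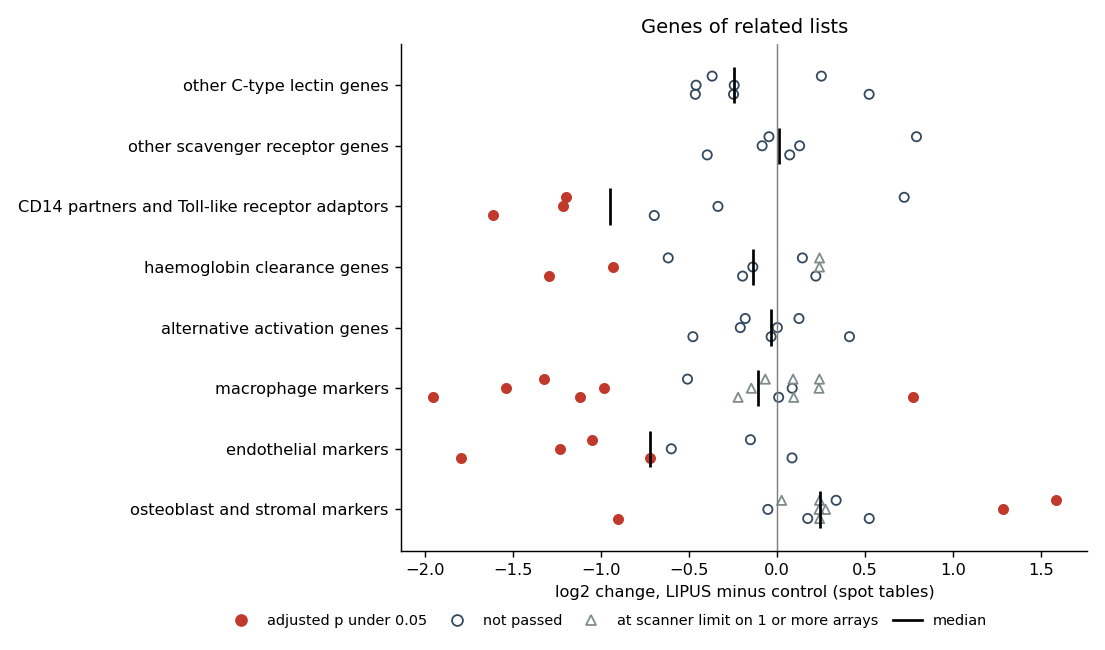
Log2 change, LIPUS minus control (horizontal axis, spot tables), of each measured gene in 8 related lists (rows), with red points for an adjusted p under 0.05, open points for genes that did not pass, triangles for spots at the scanner limit on 1 or more arrays and black bars for the median. The called partners of Cd14 lie at -1.61, -1.22 and -1.20, and no other C-type lectin, scavenger receptor or alternative activation gene was called.

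In these mixed cultures, fewer cells of a type and less RNA per cell cannot be told apart. Of 21 macrophage markers, 16 were measured, 15 of them above background on all arrays, and of the 16, 5 were called lower and 1 higher, with a median of -0.11 on the log2 scale (-0.98 over the 9 markers that were never at the scanner limit). Their mean level was 3.14 to 3.26 on the LIPUS arrays and 3.58 to 3.63 on the control arrays. Spots of 7 of the 16 reached the scanner limit on 1 or more arrays, 2 of them on all arrays, so their levels and changes are capped there. Among the markers called lower were Aif1 (-1.54 ± 0.16), Adgre1 (-1.32), C1qc (-1.12) and Csf1r (-0.98). The changes of Clec10a and Clec4a1, at -2.99 and -1.65, lay below those of these 4 markers, and that of Cd14, at -0.88, lay just above them. Mpeg1, the marker called higher, was above background on 3 LIPUS arrays and 0 control arrays. In the value table over all rows 0 markers were called, and 6 lower and 0 higher in the fit restricted to probes above background. The part of macrophage content in the changes of Clec10a, Clec4a1, Cd14 and Cd68 was not tested.

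Markers of other cell types moved too. Of 19 endothelial markers, 7 were measured and 4 were called lower, with a median of -0.72 and mean levels of -0.97 to -0.91 in LIPUS, against -0.26 to -0.09 in control. They were Esam (-1.80 ± 0.22), Ramp2 (-1.23), Icam2 (-1.05) and Cldn5 (-0.72). The endothelial gene Clec14a had -0.16, and -0.53 with the grid set as a block, and was called in neither. Pecam1 was too dim to be tested. With the grid set as a block 1 endothelial marker was called, and the value table gave 0 over all rows and 1 in the restricted fit. The call of Cldn5 was lost in 9 of 20 alternative settings. Of 15 osteoblast and stromal markers, 12 were measured, 2 were called higher (Dmp1, 1.59 ± 0.15; Phex, 1.29 ± 0.20) and 1 lower (Lepr, -0.90, lost in 8 of 20 alternative settings), with mean levels of 3.79 to 4.0 in LIPUS, against 3.48 to 3.58 in control. Spots of 5 of the 12 reached the scanner limit, 4 of them on all arrays, so their levels and changes are capped there, and over the other 7 the median was 0.34. In the value table over all rows 0 were called, and 4 higher and 1 lower in the restricted fit. Beside them stood Clec11a, with 0.48. Of 4 measured dendritic cell markers, RT1-Da was called lower (-0.67), a call lost in 13 of 20 alternative settings. The 3 measured osteoclast markers, 7 mast cell markers and 5 T and NK cell markers had 0 called genes by limma, with 0, 1 and 3 of them at an unadjusted p under 0.05. In the neutrophil list S100a8 was called higher (0.99), among megakaryocyte markers Pf4 was lower (-1.77) and Gp1bb higher (0.88), and among adipocyte markers Cidec was higher (1.09). The call of S100a8 was lost in 9 of 20 alternative settings and that of Gp1bb in 11 of 20, the grid block among them (adjusted p = 0.159 and 0.177), and that of Cidec in 2 of 20. No B cell marker and 1 erythroid marker, Epor at 0.19, were measured. The part of these cell types in the results for the lectin and scavenger receptor genes was not tested.

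Across 20 alternative settings, Clec10a was called in 19, with log2 changes of -3.34 to -2.81, and Clec4a1 in 19, at -2.0 to -1.45. The setting that ended both calls was the value table over all rows (adjusted p = 0.0589 and 0.120). Cd14 was called in 13 of 20, at -1.23 to -0.76. The value table fit restricted to probes above background, 1 of the 20, was chosen after the result over all rows was seen. With the grid set as a block, 1.29% of all tested genes and probes were called, and Clec10a and Clec4a1 were among them.

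**Figure D5:**
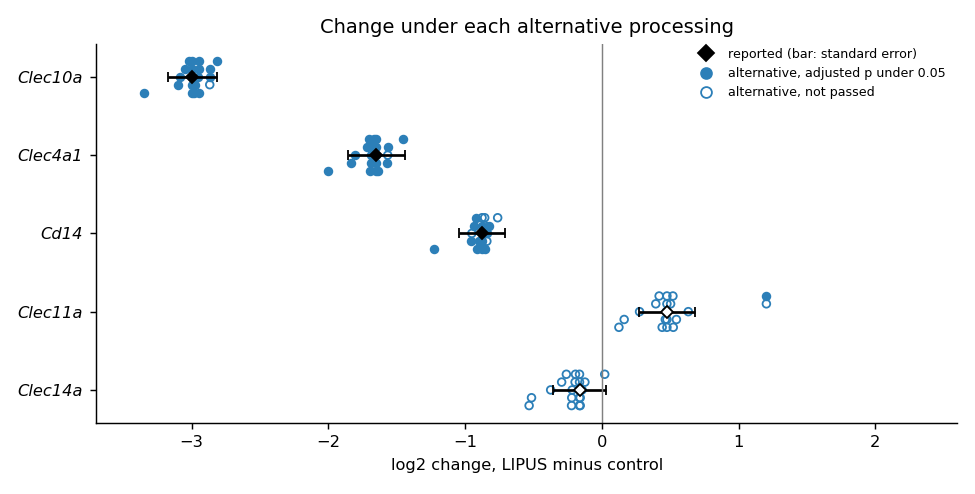
Log2 change, LIPUS minus control (horizontal axis), of 5 genes under the reported setting (diamond with standard error, filled where the adjusted p is under 0.05) and under each of 20 alternatives (blue points, filled where the adjusted p is under 0.05). Clec10a and Clec4a1 have filled points except in the value table over all rows, Cd14 has 7 open points, and the filled point of Clec11a at 1.20 is the value table restricted to probes above background.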

How the data were processed

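The deposited spot tables give spot and background brightness as intensity, as whole numbers without normalization, and the share of saturated pixels in percent, per the file headers. Spot position and quality flags are deposited as a score, per the file headers. The deposited value table holds the authors' log2 values, with a 75th percentile of 0 per array (the scanner and the steps behind that table are not stated in the labels or headers). Each array holds 45220 spots.

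Spot medians were background-corrected with limma's normexp (offset 50), log2-transformed and scaled to each array's 75th percentile. The planned processed signal and background flag were not columns of these tables. Background was the 95th percentile of 153 negative control spots, to be passed on at least 3 arrays, which left 23260 probes. Symbols came from RefSeq GRCr8 accessions, and 10768 gene probes had one. Each symbol took its brightest probe on average. LIPUS and control were compared, two-sided, with limma 3.58.1 in R 4.3.3 (the data.table package, version 1.17.8, jsonlite 2.0.0), with Benjamini-Hochberg adjustment over all tested. The limma fit was tested on simulated data. Plots used matplotlib 3.10.9 in Python 3.11.15. The number of arrays, 6, limits the precision.

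The members, the 17 other gene lists and the tests were chosen with earlier results of these data known. Named were every listed gene, up to 4 genes with the smallest p in each list, called markers, and the 3 nearest profiles of each called gene, except 1 marker that is not reported here. Correlations of deviations between same-numbered replicates were 0.0011, 0.0095 and -0.012, within the -0.017 to 0.016 of differently numbered ones. Deviations from the mean of only 3 arrays cannot decide whether the numbers pair the samples.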

Additional observations from a re-analysis of the deposited data

How the results depend on the processing

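The number of called genes and probes, 1449 as reported, was 612 with plain subtraction of background floored at 1, 655 with no filter on dim probes, 0 in the value table over all rows, 809 in the value table when only probes above background in the spot tables were tested (chosen after the 0 was seen), 282 with the grid set as a fixed block and 3719 with spike-in scaling, which rested on 5 probes. Leaving out 1 array at a time gave 642 (without control 1) to 2168 (without control 3). Calls higher in LIPUS were 43.6% of all calls as reported, 32.3% with median scaling, 35.8% in that restricted value table and 5.30% with spike-in scaling. Spike-in scaling moved the median log2 change of all genes to -0.32, and Clec10a, Clec4a1 and Cd14 at -3.34, -2.0 and -1.23 lay below that shift. The cause of these differences was not tested.

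Of the 6 measured lectin and scavenger receptor genes, 2 to 3 were called under each alternative on the spot tables, also with 1 array left out. In the value table over all rows 0 were called, with each array left out also 0, and 4 were called in the restricted value table. With 1 array left out, the log2 change of Clec14a ran from -0.29 (without control 1) to 0.021 (without control 3), and in the value table over all rows from -0.46 (without control 1) to 0.19 (without control 3), with 0.060 without LIPUS 3. With the replicate number as a block, 1175 genes and probes and 3 of the 6 genes were called, and none of the 6 in the value table over all rows.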

Other observations

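Gene order along the chromosomes was looked up in RefSeq after the changes of the lectin genes had been seen, taking 4 genes on each side of each listed gene. Of 80 such neighbours, 21 were measured, 3 were called lower in LIPUS and 1 higher. Over all tested genes and probes, 3.74% were called lower and 2.89% higher. Whether the place on the chromosome bears on these changes was not tested. C3ar1 near Clec4a1, which encodes the receptor of complement fragment C3a, had a log2 change of -1.39 ± 0.20 (SE, limma adjusted p = 0.00386), and Slc2a3 on the same side, a glucose transporter gene, had -0.85 (adjusted p = 0.0137). Necap1, between Clec4a1 and C3ar1, had 0.00. Near Cd68, Tnfsf13, which encodes a cytokine for B cells and plasma cells, had -1.46 ± 0.17 (SE, adjusted p = 0.00131), while Eif4a1 had 0.17. Zdhhc2 near Msr1 was the neighbour called higher, with 1.07 ± 0.20 (SE, adjusted p = 0.0135). Neither measured neighbour of Clec10a passed (Slc16a13, -0.30, and Dlg4, -0.13), and none of the 4 measured neighbours of Cd14 did, at 0.17 to 0.31.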
